A study of Rattus norvegicus with 14 samples.

Results

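The macrophage marker genes Cd68, Aif1, Cd163, Mrc1, Csf1r, Adgre1, Lyz2, Itgam, Cd53 and Fcgr3a were followed in plantaris, a fast-twitch calf muscle of the rat, under 3 diets. These 10 genes were taken by name from the 18535 named genes of the array, of which 16375 passed a filter on dim probes, and Adgre1 was found under its older name Emr1. All 10 passed that filter, and the probe used for each was well above background on all 14 arrays. Of the 10 genes, 7 had 1 probe, and Aif1, Csf1r and Itgam had 2, of which the brighter was used unless stated.

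Wistar rats without a stated genetic change were fed a control diet holding 1000 IU of vitamin D per kg (n = 4), a diet depleted of vitamin D (n = 6), or a depleted diet followed by one that restored the vitamin (n = 4). How much vitamin D the depletion and repletion diets held, how long they were fed, and the age of the rats are not stated in the labels used here. Every muscle had its own array, hybridised in 1 colour, and the sample titles call the muscles biological replicates. The title and the diet field of depletion replicate 1 name different diets, and the title was followed.

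Macrophages are phagocytes that are seeded in tissues before birth or derive from circulating monocytes. They depend on the growth factors Csf1 and Il34, which signal through the receptor Csf1r, and on the transcription factor PU.1, encoded by Spi1. In skeletal muscle they lie mainly in the connective tissue between fibres, clear debris after injury and support the muscle stem cells, and vitamin D receptor is known to be present in cells of this lineage.

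Each level is the log2 ratio of a probe's signal to the 75th percentile of all probes on its array, so that 0 is a bright probe and 1 unit is a doubling. Levels are comparable between arrays for 1 probe but not between genes. The 14 arrays lay on 5 slides that held 2 to 4 arrays each, and slide was a term of the limma model that gave all differences, standard errors (SE) and p-values. Tnnc2, the troponin C of fast fibres, was bright, with mean levels of 8.61 in control, 8.53 in depletion and 8.58 in repletion. Its level cannot tell plantaris from other fast muscles. The 75th percentile lay between 1781 and 2387 intensity units, and 82.8% to 88.1% of the spots passed the scanner's test against background. In whole muscle, fewer macrophages and less marker RNA per macrophage cannot be told apart.

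Most of the macrophage markers had higher mean levels on the depletion and repletion diets than on the control diet, and none of these differences passed the test across all probes. In depletion against control 9 of the 10 lay above 0, with a median log2 difference of 0.53, and in repletion against control 8 of 10 did, with a median of 0.46. Repletion and depletion differed by a median of 0.09, with 7 of 10 above 0. Over all 16375 genes tested the medians were -0.02, 0.02 and 0.04 in the same order. With limma's moderated test and Benjamini-Hochberg adjustment over 26391 probes, 0 probes passed an adjusted p of 0.05 in any of the comparisons, a share of 0%. The smallest adjusted p of any probe from limma was 0.832 for depletion against control, 0.933 for repletion against depletion and 1.0 for repletion against control.

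At an unadjusted p under 0.05, 3 of the 10 markers stood out in depletion against control, all higher, where 4.82% of all probes did and 2.13% did so in the upward direction. The 3, Aif1, Cd53 and Fcgr3a, became 1 with no slide term, which was Fcgr3a. They became 2 with slide as a random block (Aif1 and Fcgr3a) or with probes averaged per gene (Cd53 and Fcgr3a). With 1 array left out the count was 2 to 4 (2 without depletion replicate 1). With normexp background correction in place of the scanner's it stayed at 3, but Lyz2 took the place of Fcgr3a, whose difference was then -0.05. The share of all probes above 0 in this comparison was 45.3%. In repletion against control the same 3 genes, Aif1, Cd53 and Fcgr3a, stood out, against 1.99% of all probes and 1.3% in the upward direction, with 53.6% of all probes above 0. Both comparisons use the same 4 control arrays, so the second is no separate support for the first. In repletion against depletion, 0 of 10 had an unadjusted p under 0.05, where 3.46% of all probes did (2.5% upward) and 58.9% lay above 0. The F test for any difference between diets gave the same 3 genes an unadjusted p under 0.05 and passed none after adjustment, against 3.1% and 0% of all probes. Counting arrays alone, 2 of 10 markers had every repletion array above every control array, against 0.701% of all probes (0.462% the other way). None of the 10 was free of overlap in depletion against control, where 0.345% of all probes lay higher and 0.512% lower, or in repletion against depletion (0.231% and 0.0758%).

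**Figure D1:**
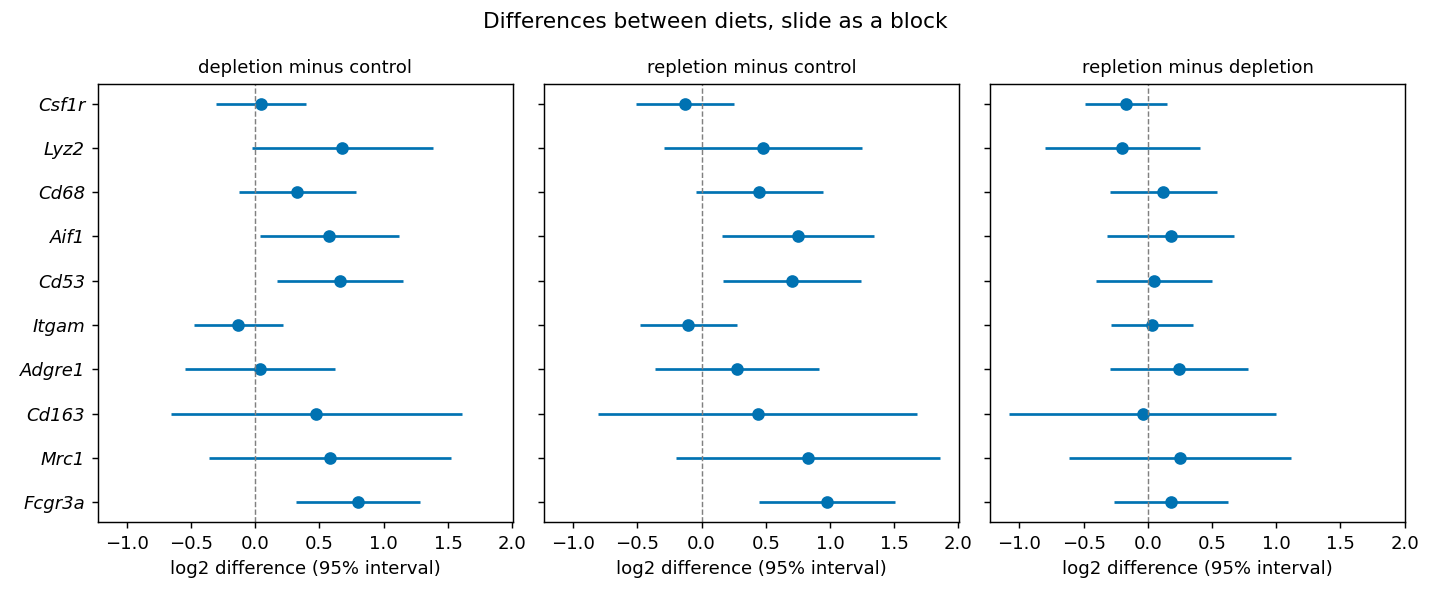
Log2 difference between diets (x axis, log2 units) of the brightest probe of each macrophage marker gene, as point with its 95% interval from limma's fit with slide as a block, in 3 panels for the 3 comparisons. Aif1, Cd53 and Fcgr3a have intervals above 0 in both comparisons with control, and all 10 intervals of repletion minus depletion span 0.

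Csf1r, the receptor for Csf1 and Il34 on cells of this lineage, was measured by a probe at chr18:57093036-57093095 of rn4 and by a dimmer one at chr18:57105231-57105932. The brighter probe read -1.76, -1.75, -2.85 and -1.11 in control replicates 1 to 4 and -1.90, -2.65, -1.39 and -1.31 in repletion replicates 1 to 4, and between -2.33 and -0.77 in depletion, with a median of -1.27. The groups overlapped, and the arrays of 1 slide lay close together whatever the diet: the 3 arrays of slide 2, with 1 of each diet, read the lowest values of the series, -2.85, -2.65 and -2.33. Of the variance of this probe, 92.2% lay between slides, and the F test for slide from limma gave an adjusted p of 0.000749. The log2 difference with slide in the model was 0.04 ± 0.16 (SE) for depletion against control and -0.13 ± 0.17 for repletion against control. The ligand genes were measured too: Csf1 read -1.46 ± 0.27 (SD, n = 4) in control and -1.16 ± 0.57 (SD, n = 6) in depletion, a difference of 0.47 ± 0.30 (SE), and Il34 differed by 0.10 ± 0.20.

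Lyz2, the lysozyme of macrophages and other myeloid cells, had a single probe at chr7:56607738-56607797. It read 3.43, 3.90 and 2.89 in control replicates 2 to 4, and its spot on control replicate 1 was marked as an outlier and left out of the fit. Repletion replicates 1 to 4 read 4.07, 3.58, 3.65 and 3.58, and depletion ran from 2.74 through a median of 3.96 to 4.50. Depletion replicates 1 and 2 were the highest and depletion replicate 6 the lowest of the series, so the depletion group enclosed both others. The difference from control was 0.68 ± 0.31 for depletion (95% interval -0.03 to 1.38, adjusted p = 0.832 from limma) and 0.48 ± 0.34 for repletion.

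Cd68, a glycoprotein of macrophage lysosomes, was measured at chr10:56481726-56481785. Control replicates 1 to 4 read -1.20, -1.38, -0.76 and -1.20, and repletion replicates 1 to 4 read -0.81, -0.55, -0.96 and -0.90. All 4 repletion arrays lay above the control mean, while control replicate 3 exceeded 3 of them. Depletion ran from -1.53 through a median of -0.88 to -0.35, wider than both other groups. The difference was 0.33 ± 0.20 for depletion and 0.45 ± 0.22 for repletion, each against control (95% intervals -0.13 to 0.78 and -0.05 to 0.94).

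Aif1, also called Iba1, a calcium-binding protein of the actin skeleton used as a macrophage and microglia marker, was read by probes at chr20:3716264-3716323 and chr20:3716146-3716205. With the brighter probe, control replicates 1 to 4 read 0.19, 0.14, -0.10 and -0.36, and repletion replicates 1 to 4 read 0.55, 0.73, 0.76 and 0.33. The lowest repletion array was above the highest control array. Depletion replicates 1 to 6 read 0.37, 0.81, -0.04, 1.01, 0.68 and -0.21, so that 4 lay above every control array and 2, replicates 3 and 6, among the controls. The difference was 0.57 ± 0.24 for depletion (95% interval 0.03 to 1.12, adjusted p = 0.832 from limma) and 0.75 ± 0.26 for repletion (0.16 to 1.35, adjusted p = 1). The dimmer probe gave 0.38 ± 0.22 and 0.56 ± 0.24, and in it the repletion and control arrays overlapped.

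Cd53, a tetraspanin of the leukocyte surface that is not restricted to macrophages, was measured at chr2:202186186-202186245. It read -1.51, -1.63, -1.48 and -2.16 in control replicates 1 to 4, and -1.03, -1.01, -1.24 and -1.57 in repletion replicates 1 to 4. Only repletion replicate 4 fell among the controls. Depletion replicates 1 to 6 read -0.79, -0.65, -1.78, -0.91, -1.42 and -2.29, with replicate 6 below every control array. The difference was 0.66 ± 0.22 for depletion (95% interval 0.17 to 1.15, adjusted p = 0.832 from limma) and 0.71 ± 0.24 for repletion (0.17 to 1.25, adjusted p = 1). Without slide in the model these were 0.39 and 0.48, and neither had an unadjusted p under 0.05. Within slides 1, 2 and 4, which held both diets, depletion exceeded control by 0.78, 0.83 and 0.75 log2 units.

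Fcgr3a, a receptor for the Fc part of immunoglobulin G, was read by 1 probe at chr13:86877181-86877240, whose sequence is shown because this gene had the largest differences of the set in both comparisons with control and lies in a family of similar receptors that includes Fcgr2b.
Fcgr3a probe: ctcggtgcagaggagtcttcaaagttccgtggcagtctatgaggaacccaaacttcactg

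This probe read -6.74, -6.49, -6.08 and -6.40 in control replicates 1 to 4 and -6.00, -5.30, -5.36 and -5.29 in repletion replicates 1 to 4, with every repletion array above every control array. Depletion replicates 1 to 6 read -5.34, -5.18, -6.09, -5.92, -5.66 and -5.95, all above the control mean and 5 of them above every control array. The difference was 0.80 ± 0.22 for depletion (95% interval 0.31 to 1.28, adjusted p = 0.832 from limma), a fold of 1.74, and 0.98 ± 0.23 for repletion (0.45 to 1.5, adjusted p = 1), a fold of 1.97. Within slides 1, 2 and 4 depletion exceeded control by 1.28, 0.90 and 0.74. The probe was dim, with 21.8 to 58.0 intensity units against a mean net signal of 14.7 to 23.7 in the negative control spots of an array. With normexp background correction in place of the scanner's, the difference was -0.05 for depletion and -0.04 for repletion, so its direction changed with the background correction. That correction also moved the median of all probes to -0.14 and -0.12, and relative to it Fcgr3a stood at 0.09 and 0.08. With the authors' deposited values in the same model it was 0.19 and 0.24.

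Fcer1g and Tyrobp encode signalling partner chains of Fc and other activating receptors. Fcer1g read 0.01 ± 0.22 (SD, n = 4) in control, 0.29 ± 0.62 (SD, n = 6) in depletion and 0.40 ± 0.08 (SD, n = 4) in repletion. It differed from control by 0.51 ± 0.27 (SE) and 0.60 ± 0.30, and Tyrobp by 0.54 ± 0.29 and 0.53 ± 0.32. Fcgr1a, the high-affinity receptor of the family, differed by 0.65 ± 0.26 and 0.81 ± 0.29, and Fcgr2b, the inhibitory one, by 0.94 ± 0.40 and 0.88 ± 0.44. Fcgr2b read -0.33 on depletion replicate 1, whose labels disagree. On the other depletion arrays it read -2.95 to -1.53, and in control -2.70 to -1.90. None of these passed limma's adjusted p of 0.05.

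Itgam, the alpha chain CD11b of the integrin that macrophages share with neutrophils and NK cells, was read by 2 probes at chr1:187385524-187385583 and chr1:187385032-187385565. They are printed because they gave different patterns from nearly the same stretch of message. The capitals mark a run of 34 bases that both hold, bases 1 to 34 of the brighter and 19 to 52 of the dimmer probe, after which their sequences part.
Itgam brighter probe: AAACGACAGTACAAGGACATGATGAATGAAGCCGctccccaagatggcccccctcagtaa
Itgam dimmer probe: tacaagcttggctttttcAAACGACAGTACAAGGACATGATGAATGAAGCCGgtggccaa

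The brighter Itgam probe, designed to an Ensembl transcript, read -1.1, -0.82, -0.36 and -0.55 in control replicates 1 to 4 and -0.95, -0.41, -1.70 and -0.88 in repletion replicates 1 to 4, and between -1.74 and -0.16 in depletion, with a median of -1.19. The groups overlapped, and slides again set the arrays apart, with the 3 arrays of slide 2 at -0.36, -0.41 and -0.16 and the 3 of slide 3 at -1.70, -1.74 and -1.29. Between slides lay 88.1% of its variance (adjusted p = 0.00496 from limma's F test for slide). The dimmer probe, designed to a RefSeq transcript, had 26.5% of its variance between slides. It lay 19.2-fold below the brighter one on average, between -6.50 and -3.68. Across the 14 arrays the 2 probes of Itgam correlated with r = -0.04 and rho = 0.05 (permutation p = 0.890 and 0.868), and with slide means removed r was 0.22 (exact permutation p = 0.576). The difference between depletion and control was -0.13 ± 0.15 with the brighter and 0.01 ± 0.59 with the dimmer probe. Its partner chain Itgb2, shared with other leukocyte integrins, differed by 0.64 ± 0.34.

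**Figure D2:**
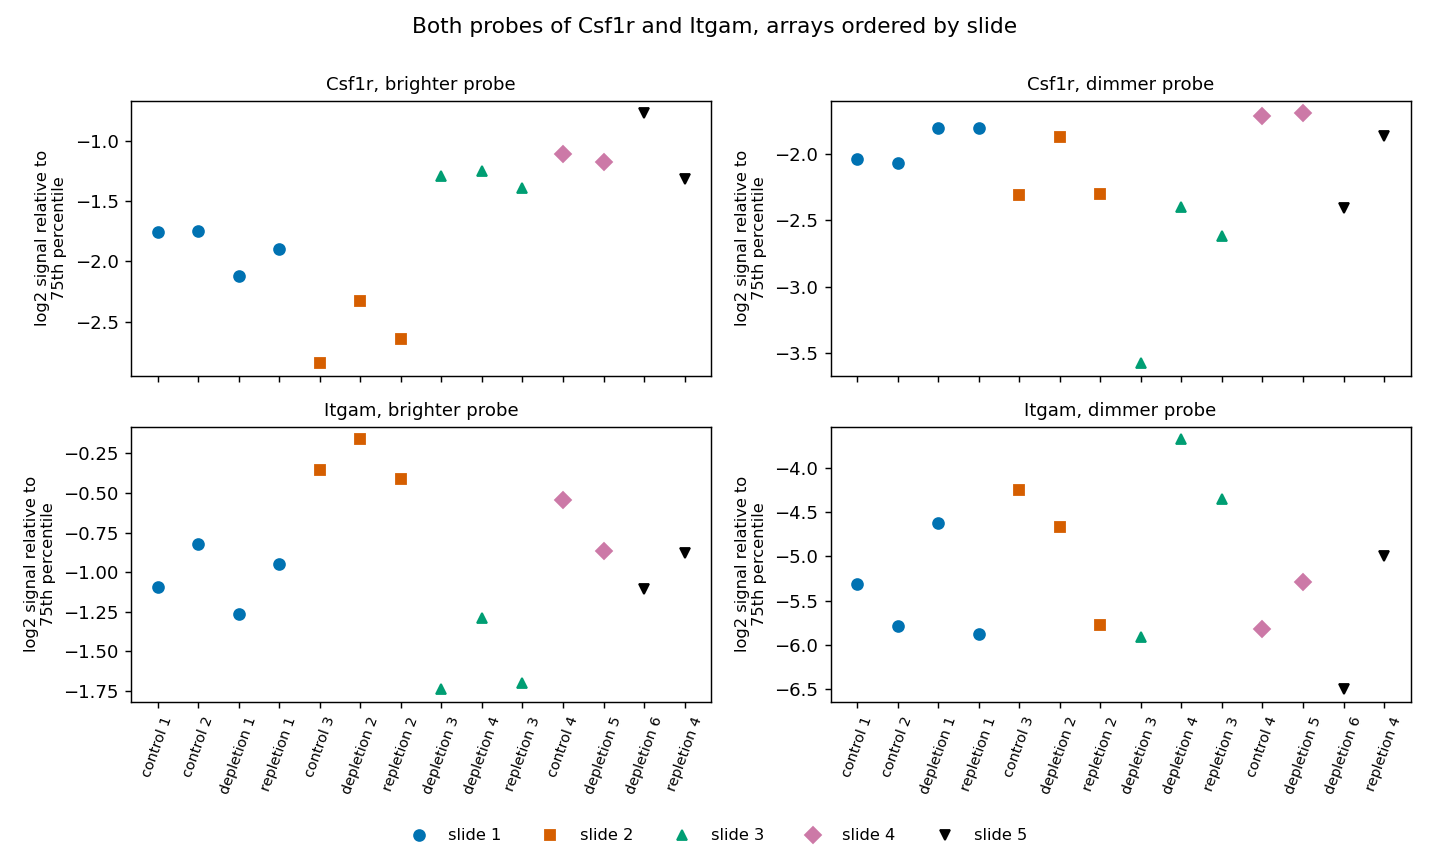
Level (y axis, log2 ratio to the array's 75th percentile) of the brighter and dimmer probes of Csf1r and Itgam on each of the 14 arrays (x axis), ordered and coloured by slide. In the left panels arrays of the same slide cluster whatever the diet, with 92.2% and 88.1% of the variance between slides, against 65.6% and 26.5% in the right panels.

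Adgre1, the F4/80 antigen of macrophages, was measured by a probe placed at chrUn:64821266-64823251. Control read between -3.09 and -2.66, and repletion between -2.84 and -2.55. Depletion replicate 1 was the lowest array of the series at -3.61 and replicate 2 the highest at -1.95, so the difference from control was 0.04 ± 0.26 for depletion and 0.28 ± 0.28 for repletion. In this gene depletion replicate 1 lay apart from its place in Cd163 and Mrc1, in which it was the highest array.

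Cd163, the scavenger receptor for haemoglobin bound to haptoglobin on resident macrophages, was read at chr4:160423704-160423763. Control replicates 1 to 4 read -0.68, -0.76, -0.78 and -1.27, and repletion replicates 1 to 4 read -0.62, -1.11, -0.76 and -0.58. Depletion replicates 1 to 6 read 1.1, -0.50, -2.0, -0.43, -1.16 and -1.95, a range beyond both other groups on both sides. The difference from control was 0.48 ± 0.51 for depletion and 0.44 ± 0.55 for repletion, and it was 0.05 and 0.11 without slide in the model and -0.13 and 0.22 without depletion replicate 1.

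Mrc1, the mannose receptor CD206 of resident macrophages, was read at chr17:88489156-88491763. It read -4.26, -4.79, -4.84 and -5.50 in control replicates 1 to 4 and -4.36, -4.39, -4.41 and -4.04 in repletion replicates 1 to 4. Depletion replicates 1 to 6 read -3.29, -4.17, -5.67, -4.40, -4.72 and -5.67. As in Cd163, depletion replicate 1 was the highest and replicates 3 and 6 the lowest of all arrays. The Mrc1 probe was dim, with 34.9 to 239 intensity units, and its lowest arrays lay within the range of the Fcgr3a probe (-6.74 to -5.18). The difference from control was 0.58 ± 0.42 for depletion and 0.83 ± 0.46 for repletion (95% intervals -0.36 to 1.52 and -0.20 to 1.86). These values moved with the processing: they were 0.14 and 0.15 with normexp, 0.32 and 0.36 with the authors' deposited values, 0.19 and 0.55 with no slide term, and 0.22 and 0.70 without depletion replicate 1. Without repletion replicate 1 the difference between repletion and control was 1.34.

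**Figure D3:**
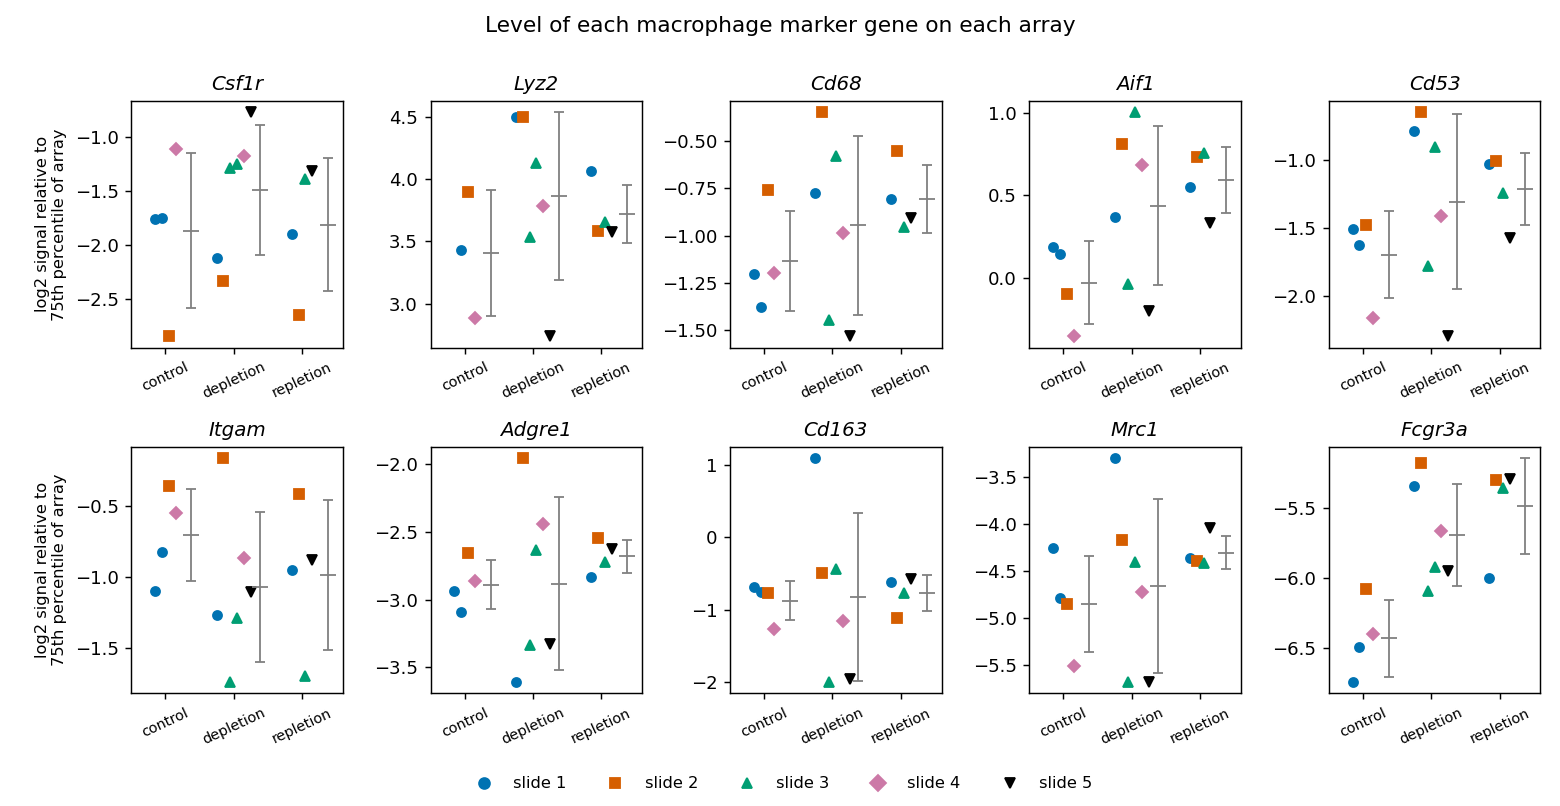
Level (y axis, log2 ratio to the array's 75th percentile) of the brightest probe of each macrophage marker gene on each array, by diet (x axis), with slide as colour and symbol; the grey bar is the group mean and its SD over 4 control, 6 depletion and 4 repletion arrays (3 control arrays for Lyz2). The depletion arrays spread the widest in 8 of 10 genes, and the control arrays of Fcgr3a lie below all 4 repletion arrays.

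The markers spread more widely within the depletion group than within the others. The median SD of the 10 genes was 0.62 over depletion arrays, 0.30 over control and 0.24 over repletion arrays, against 0.33, 0.29 and 0.26 over all genes tested. Depletion had the largest SD of the 3 groups in 8 of the 10 markers, where 43.3% of all genes did. Averaged over the markers, each taken relative to its own mean, depletion replicates 1, 2, 4 and 5 stood at 0.38, 0.50, 0.27 and 0.11 log2 units and replicates 3 and 6 at -0.48 and -0.51. Control arrays stood at -0.14, -0.21, -0.10 and -0.35 and repletion arrays at 0.11, 0.14, 0.09 and 0.17. Control and repletion therefore did not overlap in this average, and depletion held both the highest and the lowest arrays. No test was made of it, and how often other sets of genes do the same was not computed. In the same average over a wider list of macrophage genes, described below, the 2 groups overlapped. There control replicate 3, at 0.18, lay above repletion replicates 1, 3 and 4 at 0.12, 0.01 and -0.11. Depletion replicate 1, whose labels disagree, was among the high arrays: without it the median difference between depletion and control was 0.27 in place of 0.53, and with it counted as repletion 0.30.

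Within slides, depletion exceeded control by a median of 0.65, 0.64 and 0.58 log2 units over the markers on slides 1, 2 and 4, with 7, 10 and 8 of 10 genes above 0. Each of these slides held 1 depletion array, and depletion replicates 3, 4 and 6 shared no slide with a control. Repletion exceeded control by 0.28 and 0.20 on slides 1 and 2, with 9 and 7 genes above 0. The share of all genes above 0 was not computed within single slides. These counts therefore cannot be set against a background, and a shift of a whole array would move all its genes. Repletion minus depletion was -0.14 and -0.29 on slides 1 and 2 and 0.18 and 0.68 on slides 3 and 5, where the low depletion replicates 3 and 6 lay. The markers with a term for slide thus gave a larger median difference between depletion and control (0.53) than without it (0.29).

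The 10 genes were compared pairwise across the 14 arrays (13 for pairs with Lyz2). Of 45 pairs, 13 passed an adjusted p of 0.05 for Pearson's r in a permutation test adjusted over the 45 pairs, and 15 for Spearman's rho, with a median r of 0.45. With slide means removed, 16 of 45 passed by exact permutation within slides, with a median r of 0.55. Over all 130629366 pairs of 16164 genes without missing values the median r was 0.026, and 0.015 with slide means removed. An r of 0.66, the lowest among the 13, was reached by 3.62% of all those pairs and by 28.9% of the marker pairs, and an r of 0.69, the lowest among the 16, by 3.06% and 37.8% with slide means removed. Lyz2 and Cd53 had r = 0.93 and rho = 0.91 over 13 arrays (permutation p = 2e-05; r = 0.87 within slides, exact p = 0.0104). Cd163 and Mrc1 had r = 0.91 and rho = 0.85 (permutation p = 2e-05; within slides r = 0.89, exact p = 0.0113). Cd68 and Cd53 had r = 0.86 and rho = 0.86, and within slides r = 0.93 (exact p = 0.000579). When the 2 arrays farthest from the median of the first gene were left out, these r were 0.88, 0.84 and 0.76. With 1 array left out at a time the median r within slides lay between 0.43 and 0.70. The number of pairs past the threshold within slides then ranged from 0 without control replicate 2 or depletion replicate 3 to 14 without repletion replicate 2. That number also reflects the smaller number of rearrangements, for pairs without Lyz2 864 to 1728 in place of 3456. For those pairs the smallest p of the exact permutation test rose from 0.000289 to between 0.000579 and 0.00116. Pairs with Lyz2 had 864 rearrangements before any further array was left out.

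The genes did not take part alike. The brighter probes of Csf1r and Itgam passed in 0 of their 9 pairs, over all arrays and within slides, Adgre1 in 1 and 0, and Fcgr3a in 0 and 3, while Cd53 passed in 5 and 6. The brighter Csf1r probe had r below 0 with all 9 others, with a median of -0.46, and the brighter Itgam probe had a median r of 0.07. The dimmer Csf1r probe, against the 8 genes other than Csf1r and Itgam, had a median r within slides of 0.74, between 0.51 and 0.89, where the brighter one had -0.31. Over all arrays the dimmer probe, with 65.6% of its variance between slides, had a median r of 0.26 with the same 8 genes, between 0.09 and 0.51, and passed in 0 of 9 pairs, where the brighter one had a median of -0.44. For Itgam the medians were 0.63 within slides and 0.58 over all arrays with the dimmer probe, and 0.08 and 0.08 with the brighter one. The dimmer Itgam probe fell as low as -6.50, within the range of the dim Fcgr3a probe (-6.74 to -5.18), which limits what its pairs can show. The brighter and dimmer probes of Csf1r correlated with each other at r = -0.14 and rho = -0.02 (permutation p = 0.648 and 0.952), while those of Aif1 had r = 0.93 and rho = 0.94 (permutation p = 3e-05 and 1e-05). With the dimmer probe of Aif1, Csf1r and Itgam in place of the brightest, a choice made after the values were seen, all 45 pairs had r above 0 within slides, the median r was 0.75, and 28 of 45 passed. The slide F test called 2 of the 10 brightest probes, Csf1r and Itgam, against 28.1% of all probes, and 0 of 10 with the dimmer probes.

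**Figure D4:**
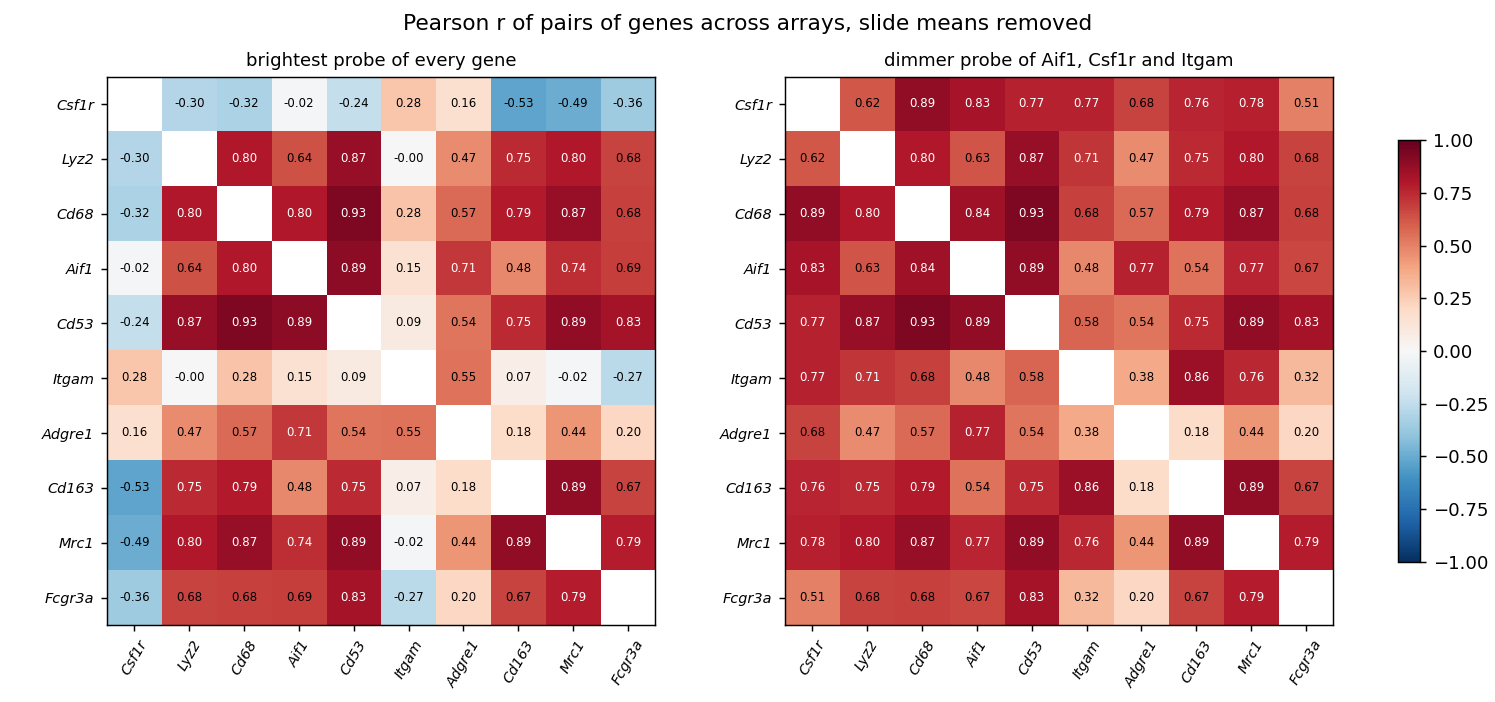
Pearson r of each pair of macrophage marker genes across arrays after removal of slide means (colour scale -1 to 1), with the brightest probe of every gene (left) and with the dimmer probe of Aif1, Csf1r and Itgam (right). On the left the values of Csf1r lie between -0.53 and 0.28 and those of Itgam between -0.27 and 0.55, and all 45 pairs are above 0 on the right.

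The stretches before the start sites of the markers were searched for GAGGAA, the core of the purine-rich motif bound by PU.1, on either strand (TTCCTC on the printed strand when reversed). RefSeq's GRCr8 promoter table held 9 of the 10 genes, without Aif1. In the 250 bases before the start, 8 of 9 held it, where 23.2% of 27457 genes in the table did (6379 genes). Cd163 held none in this window, which says nothing of PU.1 at that gene. The matches lay 27 bases before the start in Cd68, 44 in Cd53, 46 in Lyz2 and 54 in Fcgr3a, and at 180 and 35 in Mrc1. The windows of the 4 genes in that table with the highest median r with the other markers over all arrays (Cd53 0.70, Cd68 0.66, Lyz2 0.66 and Mrc1 0.61) are shown 5′ to 3′ on the gene's strand, with the motif in capitals.
Cd68, chr10:54882442-54882691, minus strand: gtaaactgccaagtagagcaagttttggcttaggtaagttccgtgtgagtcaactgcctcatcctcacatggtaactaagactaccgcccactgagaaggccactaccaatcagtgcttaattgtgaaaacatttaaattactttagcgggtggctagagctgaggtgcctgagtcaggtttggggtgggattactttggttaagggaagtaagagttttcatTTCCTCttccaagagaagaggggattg
Cd53, chr2:197087897-197088146, minus strand: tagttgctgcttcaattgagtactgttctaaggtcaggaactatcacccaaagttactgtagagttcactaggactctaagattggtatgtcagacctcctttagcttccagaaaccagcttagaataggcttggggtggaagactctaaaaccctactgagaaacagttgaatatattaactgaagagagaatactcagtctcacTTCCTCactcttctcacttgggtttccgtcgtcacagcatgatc
Lyz2, chr7:54798012-54798261, minus strand: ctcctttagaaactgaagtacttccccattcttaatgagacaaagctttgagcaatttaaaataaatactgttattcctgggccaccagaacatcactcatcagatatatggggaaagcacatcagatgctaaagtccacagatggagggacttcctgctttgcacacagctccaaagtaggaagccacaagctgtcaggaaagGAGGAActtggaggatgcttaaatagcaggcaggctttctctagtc
Mrc1, chr17:82157475-82157724, plus strand: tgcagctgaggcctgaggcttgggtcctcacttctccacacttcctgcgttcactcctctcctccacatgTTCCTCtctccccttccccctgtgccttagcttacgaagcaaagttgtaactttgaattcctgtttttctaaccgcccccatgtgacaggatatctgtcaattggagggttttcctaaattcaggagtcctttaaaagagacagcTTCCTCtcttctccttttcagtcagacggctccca

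In Cd68, Cd53 and Mrc1 the match nearest the start lay on the reverse strand, and in Lyz2 on the forward strand. A match of 6 bases is a description of the letters and was not tested for binding. Spi1, which encodes PU.1, was dim, at -5.08 ± 0.97 (SD, n = 4) in control and -4.89 ± 1.06 (SD, n = 6) in depletion, and differed by 0.05 ± 0.31 (SE).

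A wider list of 55 macrophage and monocyte genes, 48 of them tested, lay on the same side as the markers. In depletion against control 42 of 48 were above 0, with a median of 0.37, where 46.3% of all genes were. In repletion against control 41 of 48 were above 0 (median 0.41, all genes 54.6%), and in repletion against depletion 30 of 48 (median 0.05, all genes 58.8%). Without slide in the model the 3 medians were 0.21, 0.26 and 0.09. The summed linear level of the list ran from 37.2 to 48.1 in control and from 34.6 to 77.6 in depletion. Its highest array was depletion replicate 1, whose labels disagree. Many of these genes varied together across arrays, as given below, so they do not count as independent genes. By limma's adjusted p, 0 of 48 passed in any comparison, and 4 (Fcgr1a, Fcgr2b, Lgals3 and Maf), 2 (Fcgr1a and Siglec1) and 1 had an unadjusted p under 0.05 in that order, or 8.33%, 4.17% and 2.08%, where 4.75%, 2.11% and 3.38% of all genes did. The complement genes C1qa, C1qb and C1qc, which macrophages secrete, differed from control by 0.39 ± 0.36, 0.53 ± 0.39 and 0.58 ± 0.49 in depletion. Ptprc, the leukocyte antigen CD45, differed by 0.42 ± 0.22.

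Besides Fcgr1a and Fcgr2b, the list's smallest unadjusted p above 0 in depletion against control was that of Lgals3, galectin-3, at 0.81 ± 0.34. Lgals3 read 3.98 on depletion replicate 1, whose labels disagree, 1.84 to 2.97 on the other depletion arrays and 1.90 to 2.23 in control. Below 0 the smallest unadjusted p were those of Maf, a transcription factor of resident macrophages, at -0.44 ± 0.18, Cebpa, a myeloid transcription factor, at -0.22 ± 0.18, and Cybb, a subunit of the phagocyte oxidase, at -0.29 ± 0.24. In repletion against control Siglec1, the sialoadhesin CD169, had 0.96 ± 0.32 and Hmox1, haem oxygenase 1, had 0.74 ± 0.33. Below 0 in that comparison, Maf had -0.17 ± 0.19 and Cebpa -0.20 ± 0.20. In repletion against depletion Ccr2, the chemokine receptor of inflammatory monocytes, had -0.42 ± 0.19 and Lgals3 -0.38 ± 0.32. Above 0, Siglec1 had 0.55 ± 0.27, Maf 0.27 ± 0.16 and Nos2, inducible nitric oxide synthase, 0.22 ± 0.15. Ccr2 and Cebpa were dim, at -7.31 to -4.72 and -6.37 to -5.14, overlapping the Fcgr3a probe, which limits what they can show. Ccr2, Cybb and Nos2 also differed between slides (adjusted p = 0.0049, 0.0018 and 0.00019 from limma's F test for slide), as did 28.1% of all probes.

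After removal of slide and diet means, each of 16164 genes was set against the mean deviation of the 9 markers that had no missing value. Among 16015 genes ranked outside both lists, with predicted loci without a symbol skipped, the closest were Apobec1, Lyl1, Apbb1ip, Slc29a3, Ptpn18, Fcmr, Tbxas1 and Cyp2d5. Their r ran from 0.95 to 0.96 over 14 arrays, with 7 residual degrees of freedom left after removal of slide and diet. Within the wider list C1qa had r = 0.99, Fcer1g 0.97, Tyrobp 0.95 and Ptprc 0.95, and 27 of 48 had r above 0.5, where 8.18% of all genes did. Ccr2 had -0.53 and Ncf1 -0.51. These values describe 14 arrays that share slides and scaling, and carry no test. None of the 8 closest genes had an unadjusted p under 0.05 between diets in limma's fit, and their differences from control in depletion ran from -0.03 in Slc29a3 to 0.41 in Cyp2d5.

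Markers of other cells were listed beside the macrophage genes. Neutrophils also express Lyz2 and Itgam, and their own marker genes had 6 of 10 above 0 in depletion against control (median 0.23), and the sum of their linear levels, over genes without missing values, ran from 0.453 to 0.641 in control, from 0.422 to 1.90 in depletion and from 0.480 to 0.798 in repletion. The 1.90 was depletion replicate 1 alone, the array whose labels disagree, and the next depletion array was at 0.705. Of that list, S100a9 differed by 1.46 ± 0.84, with a level of -0.27 on depletion replicate 1 and of -4.35 to -2.66 on the other depletion arrays, and Retnlg by -0.09 ± 0.15. Red blood cell genes had 5 of 5 above 0 (median 0.84), with Hbb, the beta globin, at 0.84 ± 0.35 and Alas2, its haem enzyme, at 0.97 ± 0.48. Their sum ran from 17.5 to 37.3 in control, from 21.1 to 86.5 in depletion and from 22.6 to 44.4 in repletion, and in mean deviation depletion replicates 1 and 2 were the highest arrays at 1.03 and 0.72, with depletion replicate 6 among the lowest at -0.65. T and NK cell genes had 6 of 15 above 0 (median -0.09), fibroblast genes 2 of 11 (median -0.26), mast cell genes 2 of 8 (median -0.11), endothelial genes 6 of 12 (median 0.01) and fast muscle genes 3 of 11 (median -0.04). Schwann cell genes had 6 of 8 (median 0.09), fat cell genes 5 of 8 (0.08) and B and plasma cell genes 4 of 6 (0.06). Dendritic cell genes had 2 of 6 (-0.10) and muscle stem cell genes 2 of 7 (-0.23). An unadjusted p under 0.05 from limma was found in 2 of 5 red blood cell, 2 of 10 neutrophil, 2 of 15 T and NK cell and 1 of 12 endothelial genes. The other lists in this paragraph held none, against 4.75% of all genes. By array, the T and NK, mast and neutrophil lists were low on depletion replicate 6 (-0.44, -1.04 and -0.50 in mean deviation) and high on depletion replicate 2 (0.39, 0.67 and 0.34), as the macrophage markers were. On other arrays they parted from the markers. On depletion replicate 1, high in the markers, the T and NK and mast lists were at -0.13 and -0.31. The neutrophil list was at 0.10 on depletion replicate 3 and the mast list at 0.65 on control replicate 2, both low in the markers. In repletion against control Schwann cell genes had 7 of 8 above 0, with a median of 0.44 and 3 of 8 with an unadjusted p under 0.05, and their mean deviation was 1.77 on repletion replicate 2 against -0.19 to 0.16 on the other repletion arrays. Red blood cell genes had 5 of 5 above 0 there (median 0.38), neutrophil genes 7 of 10 (median 0.12) and T and NK cell genes 9 of 15 (median 0.15). All of these lists held genes well above background, and the part of other blood and tissue cells in the macrophage values was not tested.

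**Figure D5:**
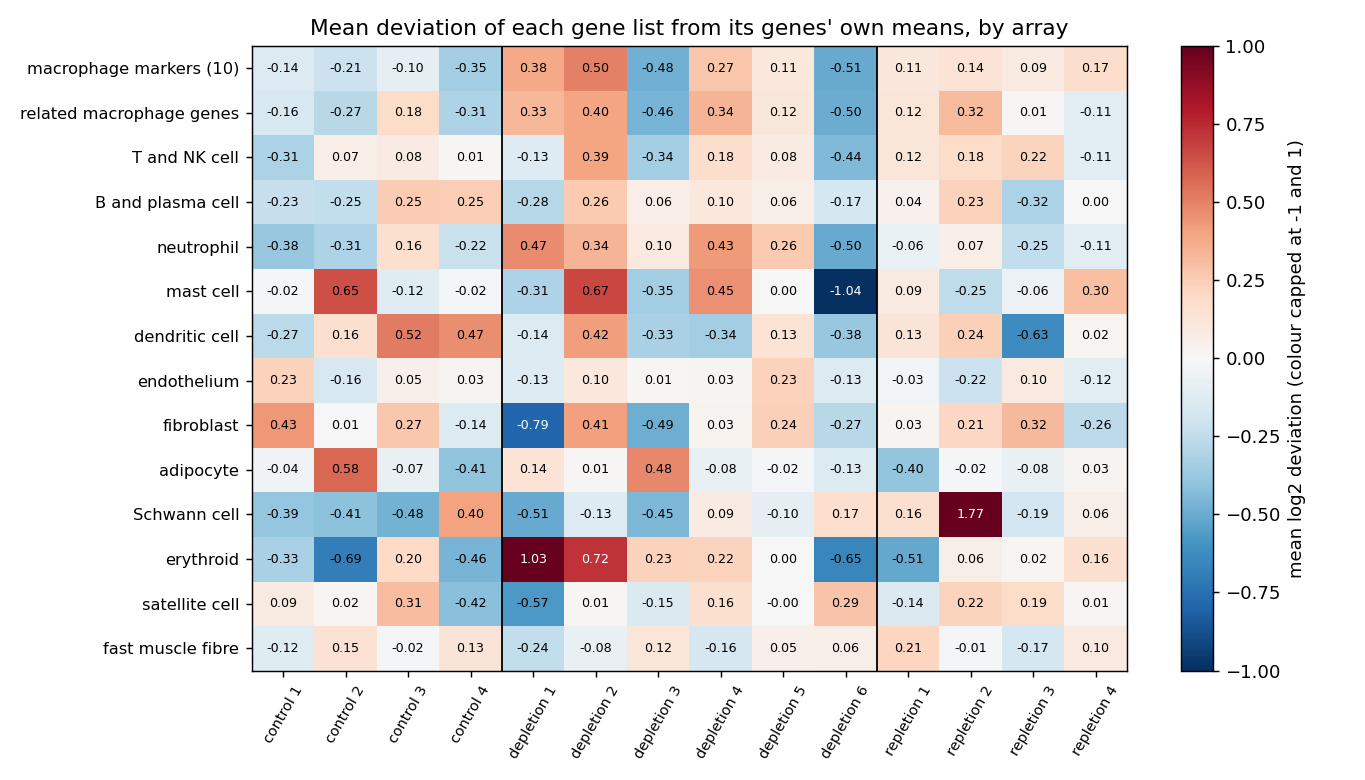
Mean log2 deviation of the genes of each cell type list from their own means over 14 arrays (colour, capped at -1 and 1, value printed), for arrays grouped by diet. The macrophage markers and the related macrophage genes are lowest on depletion replicates 3 and 6 and highest on depletion replicates 1, 2 and 4, while the endothelial and fast muscle lists stay between -0.24 and 0.23. The mast cell list is lowest on depletion replicates 6 and 3 (-1.04 and -0.35), the T and NK cell list on the same arrays (-0.44 and -0.34), and the neutrophil list is highest on depletion replicates 1, 4 and 2 (0.47, 0.43 and 0.34) and lowest on depletion replicate 6 (-0.50). On depletion replicate 1 the T and NK and mast cell lists are at -0.13 and -0.31, and on depletion replicate 3 the neutrophil list is at 0.10.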

How the data were processed

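Per the labels' protocols, RNA from 14 plantaris muscles was isolated with Trizol, turned into Cy3-labelled cRNA and put on 1-colour Agilent arrays, each muscle on its own. The scanner files hold spot intensity made with Agilent Feature Extraction 11.5.1.1, whose processed signal is background-subtracted, per the file headers. The deposited series table holds log2 values that the authors normalized between arrays; limma is named in the submitters' processing notes with no version, and its steps are not given here. That table served only as an alternative.

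Control spots and outlier-marked spots (0.669% to 1.05% per array) were left out, spots of a probe averaged, and each log2 signal was reduced by the log2 of the 75th percentile of its array, with no saturated spots. The test took 26391 of 30367 probes, those that exceeded background on 4 or more of 14 arrays and kept 2 or more values in each group. Genes other than the 10 markers were named through RefSeq accession (18816 probes), symbol (2935), synonym (407) or file name (189), and 8007 probes had no name; probe coordinates are the files' rn4 ones, and promoter sequences come from RefSeq's GRCr8 table. The number of arrays limits the precision.

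Diet group (by title) and slide were fitted in 1 model over all arrays with limma 3.58.1 in R 4.3.3, with Benjamini-Hochberg adjustment over probes; p-values measure the spread between these muscles. Gene pairs were tested with 100000 permutations of the arrays and with exact permutations within slides, both two-sided. Scripts ran in Python 3.11.15 with numpy 2.4.6, pandas 2.3.3, scipy 1.17.1 and matplotlib 3.10.9, and the fit and the permutation test were tested on simulated data. The markers, the other lists and the alternatives were chosen with earlier results of these data known. Named besides the markers were 10 genes of the lineage, the 3 related genes of smallest p per direction and comparison, the 2 brightest genes of each other cell list, of which a part is given, and the 8 genes closest to the markers. A gene withheld for evaluations is not reported here by itself.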

Additional observations from a re-analysis of the deposited data

Results flagged for a closer look

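Within groups of 4 to 10 arrays, 4 of 98 groups tested held 1 array far from the others by Dixon's ratio of gap to range, about as many as chance gives at 1 in 20. Cd163 was lowest on control replicate 4, at -1.27 with the nearest control at -0.78. Mrc1 was highest on repletion replicate 4 at -4.04, with the nearest at -4.36, and Lyz2 was highest on repletion replicate 1 at 4.07, with the nearest at 3.66. Fcgr3a was lowest on repletion replicate 1 at -6.00, with the nearest at -5.36, and that array still lay above all control arrays, the highest of which read -6.08. The control group of Lyz2, with 3 values, was not tested.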

How the results depend on the processing

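No probe and no marker passed an adjusted p of 0.05 in limma's fit under any of 27 alternatives per comparison, and the lowest adjusted p of any marker was 0.581. The median difference over the markers kept its sign in both comparisons with control under every alternative, from 0.22 (normexp) to 0.72 (only the 2 groups compared) in depletion and from 0.22 (only the 2 groups compared) to 0.75 in repletion; in repletion against depletion it ran from -0.04 to 0.19. Relative to the median of all probes, which normexp moved to -0.14 and -0.12, the markers stood at 0.37 and 0.39 under normexp in the comparisons with control. Of 390 single-gene values under alternatives other than leaving out 1 array, 22 changed sign, and 26 of 420 did with 1 array left out. In depletion against control these were, with normexp, Csf1r at -0.00994, Adgre1 at -0.032 and Fcgr3a at -0.053, with only the 2 groups compared Csf1r at -0.011, and with the other probes Itgam at 0.0066. In repletion against control they were Fcgr3a at -0.037 with normexp, Cd163 at -0.085 and Csf1r at 0.0025 with only the 2 groups compared, and Csf1r at 0.054 with no slide term, 0.054 with the replicate block, 0.076 with the mean of its probes and 0.28 with its other probe. In repletion against depletion Itgam was at -0.00788 with the authors' values, -0.044 with the mean of its probes, -0.12 with its other probe and -0.0504 with depletion replicate 1 counted as repletion, where Cd163 was at 0.51 and Adgre1 at -0.0044. There Cd163 was at 0.056 with no slide term, Csf1r at 0.15 with its other probe, and Cd68 at -0.018 and Cd53 at -0.18 with the replicate block. The cause was not tested.

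Replicate numbers were not used to pair the samples. Deviations of same-numbered arrays correlated between 0.20 and 0.70 where the 2 arrays shared a slide, and between -0.48 and 0.38 where they did not. Slide and pairing are mixed in this check, so it cannot decide whether the numbers pair animals. With the replicate block in place of slide the median was 0.44, 0.27 and 0.02 for depletion against control, repletion against control and repletion against depletion. The slide test called 1 marker with the mean of the probes and 0 with the other probes. Among pairs, normexp gave a median r of 0.23 over all arrays and 4 pairs past the threshold within slides, and the other probes gave 20 pairs over all arrays and 28 within slides, where the median r was 0.75. Leaving out 1 array at a time gave 5 to 22 pairs over all arrays, 0 to 14 within slides, and 2 to 4 markers called by slide. In depletion against control the differences then ran from -0.19 to 0.28 for Adgre1, -0.13 to 0.69 for Cd163 and -0.13 to 0.21 for Csf1r. In repletion against depletion they ran from -0.44 to 0.35 for Cd163, -0.14 to 0.15 for Cd53, -0.023 to 0.23 for Cd68, -0.018 to 0.37 for Fcgr3a, -0.032 to 0.12 for Itgam, -0.49 to 0.059 for Lyz2 and -0.15 to 0.58 for Mrc1. The use of the other probes was added after the data were seen. The signal of Fcgr3a lay near the negative control spots, which limits what its probe can show. The dimmer Itgam probe, at -6.50 to -3.68, reached similarly low levels, and the same limit holds for it and for the lowest arrays of Mrc1.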
